A study of Rattus norvegicus with 6 samples.

Results

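The 10 genes described here are transcription factors and cofactors of the Schwann cell lineage and of myelination, Sox10, Egr2, Pou3f1, Pou3f2, Nab1, Nab2, Sox2, Pax3, Id2 and Olig1. They were taken by symbol from a count table of 29884 genes, and all 10 had a row. The study measured RNA from rat sciatic nerve after chronic constriction injury (CCI), in which loose ligatures around the nerve leave lasting damage and pain. The conduit group holds 3 libraries from wild type rats with CCI whose nerve received a PLLA-PCL-RVC conduit, a polymer wrap that the study calls piezoelectric and that carries ropivacaine, a local anaesthetic. The untreated group holds 3 libraries from wild type rats with CCI and no conduit. All libraries therefore come from injured nerve, and there is no uninjured nerve and no conduit without drug among them. Age, sex, strain, time after injury and whether nerves were pooled are not given in the sources used here. Nothing says that libraries of a group came from separate animals, and the p-values below therefore rest on a spread between libraries that may be technical in part.

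Schwann cells arise from the neural crest and wrap peripheral axons. Sox10, an SRY-box factor, is needed at every stage of the lineage. In cells that will myelinate, Sox10 and the POU factors Pou3f1 and Pou3f2 together switch on Egr2, a zinc finger factor, and Egr2 then acts with Sox10 and with its cofactors Nab1 and Nab2 on genes for myelin proteins and lipids. Sox2, Pax3 and Id2 belong to the immature cell and oppose this step. After nerve injury, Schwann cells lose Egr2, regain genes of the immature state and can later myelinate again.

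The sequence upstream of Egr2 and Nab1 is shown. These genes sit at the POU and EGR steps of this scheme. Among the genes with a window, theirs were also the only ones with a match to the motifs searched. Nab2, at the EGR step too, had no match. The 250 bases before the annotated start were read from the RefSeq promoter table of GRCr8, which is not the build named for the counts, and 7 of the 10 genes matched it. Sox10, Pou3f1 and Olig1 had no entry. The Egr2 window lies at chr20:21054442-21054691 on the minus strand, and capitals mark an octamer of POU factors (ATGCAAAT) and a CArG box, the site of serum response factor. The Nab1 window lies at chr9:56545392-56545641 on the plus strand, and capitals mark 2 copies of the EGR site GCGTGGGCG, the upstream copy in reverse orientation. Each sequence reads 5′ to 3′ along its gene.
Egr2: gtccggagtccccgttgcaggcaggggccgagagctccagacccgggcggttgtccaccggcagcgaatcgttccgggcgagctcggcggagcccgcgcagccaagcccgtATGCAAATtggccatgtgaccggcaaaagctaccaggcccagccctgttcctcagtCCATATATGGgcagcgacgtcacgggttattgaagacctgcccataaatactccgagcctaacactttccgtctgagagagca
Nab1: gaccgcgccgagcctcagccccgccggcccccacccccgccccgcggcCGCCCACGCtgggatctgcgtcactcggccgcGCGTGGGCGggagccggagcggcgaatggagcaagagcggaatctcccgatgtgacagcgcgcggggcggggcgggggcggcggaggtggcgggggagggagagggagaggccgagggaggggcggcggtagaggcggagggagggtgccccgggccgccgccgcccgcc

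The octamer in the Egr2 window starts 139 bases before the annotated start and the CArG box 83 bases before it. The part of either site in the Egr2 level was not tested. The EGR sites of Nab1 start 202 and 170 bases before the start. Of 27457 promoters of the same length, searched on both strands, 1.5% held the octamer, 1.5% a CArG box and 0.514% the EGR site, and 6 of them held the EGR site more than once. The SOX motifs AACAAAG and AACAATG stood in 5.01% and 3.41% of promoters and in 0 of the 7 matched windows. No other window of the 7 held the octamer, the CArG box or the EGR site. The motifs were chosen after the windows had been read, and no motif overlapped another in the windows shown. A RefSeq gene model starts 760 bases further upstream for Egr2 and 95 bases further upstream for Nab1, so the windows mark 1 of several annotated starts. The Nab1 window had a GC content of 81.2%, against a median of 52% over all promoters, and the motif shares above were not matched for GC content.

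Library totals ran from 41524084 to 42225086 counts in the conduit group and from 38401951 to 41879724 counts in the untreated group. The 10 most abundant genes took 20.4% to 23.4% of all counts in conduit libraries and 6.26% to 8.82% in untreated libraries. Levels are given as CPM, counts scaled to library size with TMM factors (trimmed mean of M-values). TMM factors were 0.853 to 0.905 in conduit and 1.12 to 1.18 in untreated libraries. Scaling by library totals in place of TMM moved the log2 fold change of tested genes by a median of -0.39. The Schwann cell markers S100b, Cdh19 and Erbb3 were present in every library. S100b was at 3149 to 4637 CPM in conduit and 738 to 854 CPM in untreated libraries, Cdh19 at 244 to 348 CPM in conduit and 35.4 to 73.7 CPM in untreated libraries, and Erbb3 at 245 to 309 CPM in conduit and 198 to 209 CPM in untreated libraries. Markers of skeletal muscle reached 9883 CPM in untreated replicate 1, while conduit libraries had 3.39 to 7.96 CPM and untreated replicates 2 and 3 had 70.8 and 8.49 CPM. The labels' batch numbers are 3, 4 and 5 for the conduit libraries, 1 for untreated replicates 1 and 2, and 2 for untreated replicate 3. No batch holds both groups, so batch and treatment cannot be told apart in any value below.

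The comparison asks which of these regulators differed between conduit-treated and untreated injured nerve, within the study's theme of Schwann cell repair. Conduit nerves had more Sox10, Egr2, Nab1, Nab2 and Olig1 transcript and less Sox2 and Pou3f1, while Pou3f2 and Id2 were not called. Egr2 and Olig1 had the highest fold changes, 3.42-fold and 3.40-fold higher in conduit nerves, with a wider SE for Olig1. Sox2 had the lowest, 2.21-fold lower. Of the 10 members 9 passed the filter on low counts, and 7 of these were called by edgeR's quasi-likelihood test at an adjusted p under 0.05, beside 50.2% of all 15464 tested genes. By direction, 5 of 9 were higher beside 24.0% of all tested genes, and 2 of 9 were lower beside 26.2%. The members were chosen with earlier results of these data known, so these shares are a description and not a test. The conduit and untreated libraries did not overlap in 7 of the 9, beside 61.7% of all tested genes. The median log2 fold change of all tested genes was -0.04. In bulk nerve, a change in the number of Schwann cells and a change in RNA per cell cannot be told apart.

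**Figure D1:**
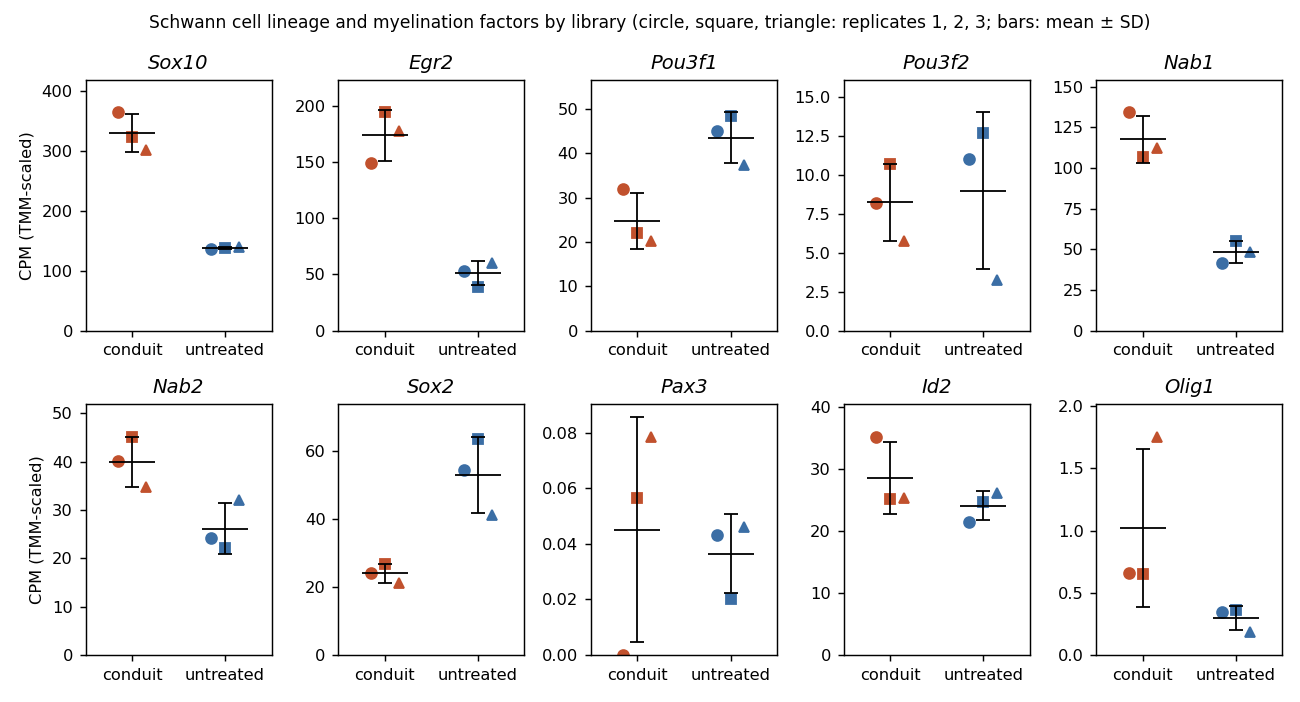
CPM of each of the 10 genes in the 3 conduit and 3 untreated libraries (y axis, TMM-scaled CPM from 0, a separate scale in each panel); symbols mark replicates 1 to 3 and bars the mean ± SD. Conduit libraries lie above all untreated libraries for Sox10, Egr2, Nab1, Nab2 and Olig1 and below them for Sox2 and Pou3f1, while the groups overlap for Pou3f2, Id2 and Pax3.

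Among the activators, Sox10 stood at 365, 324 and 302 CPM in conduit replicates 1, 2 and 3 and at 136, 138 and 139 CPM in the untreated replicates. The untreated libraries lay within 3 CPM of each other, and every conduit library was above them. Sox10 averaged 330 ± 32.0 CPM in conduit nerves and 138 ± 1.43 CPM in untreated nerves (SD, n = 3 each), with a log2 fold change of 1.26 ± 0.13 (SE, edgeR adjusted p = 0.000295). Its direction and call were the same under all 16 alternative settings, with log2 fold changes from 0.86 to 1.36.

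Egr2, the zinc finger activator of myelin genes, stood at 150, 194 and 178 CPM in conduit replicates and at 53.3, 39.2 and 60.2 CPM in untreated replicates. The lowest conduit library was above the highest untreated library by more than the whole range of the untreated group. Means were 174 ± 22.6 CPM in conduit nerves and 50.9 ± 10.7 CPM in untreated nerves, and the log2 fold change was 1.77 ± 0.19 (SE, edgeR adjusted p = 0.000374). It ran from 1.34 to 1.91 over the 16 alternatives and kept its call in each.

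Pou3f1, the POU factor that precedes Egr2 in promyelinating cells, went the other way. It stood at 32.0, 22.0 and 20.2 CPM in conduit replicates and at 45.0, 48.4 and 37.3 CPM in untreated replicates. The groups did not overlap, and conduit replicate 1 came nearest to the untreated libraries. The log2 fold change was -0.82 ± 0.20 (SE, edgeR adjusted p = 0.0121). Without conduit replicate 2 it was -0.72 with an adjusted p of 0.065, the only alternative of 16 in which the call was lost.

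Pou3f2, a related POU factor whose role in Schwann cells overlaps that of Pou3f1, stood at 8.21, 10.7 and 5.78 CPM in conduit replicates and at 11.0, 12.7 and 3.24 CPM in untreated replicates. Untreated replicate 3 was the lowest of all 6 libraries, and the other untreated libraries were the highest. The log2 fold change was -0.12 ± 0.48 (SE, edgeR adjusted p = 0.848), and its sign changed with the library left out. It was -0.52 when untreated replicate 3 was removed and 0.21 when untreated replicate 2 was removed.

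Nab1 and Nab2 bind EGR factors and were both higher in conduit nerves, Nab1 by more. Nab1 stood at 134, 107 and 112 CPM in conduit replicates and at 41.6, 55.0 and 48.5 CPM in untreated replicates, and every conduit library was well above the untreated ones. Its log2 fold change was 1.28 ± 0.15 (SE, edgeR adjusted p = 0.000543), close to that of Sox10, and the call held under all 16 alternatives (0.84 to 1.39). Nab1 is the gene whose window carries the 2 EGR sites shown above, and the part of these sites in its level was not tested.

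Nab2 stood at 40.1, 45.1 and 34.7 CPM in conduit replicates and at 24.1, 22.2 and 32.1 CPM in untreated replicates. The groups did not overlap, but conduit replicate 3 and untreated replicate 3 were only a few CPM apart. Its log2 fold change was 0.61 ± 0.18 (SE, edgeR adjusted p = 0.0231). The call was lost under 9 of 16 alternatives, among them library totals (0.23, adjusted p = 0.275). It was also lost on removal of untreated replicate 1 (0.56, adjusted p = 0.0632), untreated replicate 2 (0.51, 0.0534), conduit replicate 1 (0.63, 0.0578) or conduit replicate 2 (0.54, 0.0797), with log2 fold changes within 1 SE of 0.61.

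Of the factors that oppose myelination, Sox2 was lower in conduit nerves. Sox2, an SRY-box factor of immature Schwann cells, stood at 24.2, 26.6 and 21.1 CPM in conduit replicates and at 54.3, 63.4 and 41.0 CPM in untreated replicates. The conduit libraries were close together, and the lowest untreated library was above all of them. Means were 24.0 ± 2.76 CPM in conduit nerves and 52.9 ± 11.3 CPM in untreated nerves, with a log2 fold change of -1.14 ± 0.18 (SE, edgeR adjusted p = 0.00196). The call held under all 16 alternatives, at -1.54 to -0.99.

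Id2, a helix-loop-helix protein that lacks a DNA-binding region and blocks its partners, stood at 35.2, 25.2 and 25.3 CPM in conduit replicates and at 21.5, 24.7 and 26.1 CPM in untreated replicates. Only conduit replicate 1 stood apart, above all other libraries. The log2 fold change was 0.25 ± 0.17 (SE, edgeR adjusted p = 0.262), or 0.09 without conduit replicate 1, and it was -0.14 with library totals, so no direction can be given.

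Pax3, a paired-box factor of the neural crest and of muscle precursors, was barely detected. It had 0, 2 and 3 counts in the conduit libraries and 2, 1 and 2 counts in the untreated libraries, and it did not pass the filter. The pooled level was 0.0455 CPM in conduit nerves (95% exact Poisson interval 0.0148 to 0.106) and 0.0359 CPM in untreated nerves (0.0117 to 0.0838), intervals that cover counting error only. A difference was not detectable at this depth. The muscle precursor genes Pax7, Myf5, Myod1 and Myog summed to at most 0.0262 CPM in conduit libraries, and to 26.9 CPM in untreated replicate 1, 0.404 CPM in untreated replicate 2 and 0 in untreated replicate 3. The part of such cells in the Pax3 counts was not tested.

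Olig1, a helix-loop-helix factor best known from oligodendrocytes, had 24, 23 and 67 counts in conduit libraries and 16, 18 and 8 counts in untreated libraries. Conduit replicate 3 was high for its group, and the groups did not overlap. Its call (log2 fold change 1.77 ± 0.56 SE, edgeR adjusted p = 0.0321) was lost under 7 of the 13 alternatives that tested it. They include the removal of conduit replicate 3, which left 1.16 (adjusted p = 0.12). On removal of untreated replicate 1, 2 or 3 the log2 fold change was 1.88, 1.93 and 1.52 (adjusted p = 0.065, 0.0553 and 0.0919), so the size stayed near 1.77 while the call was lost. By limma on unfiltered log2(FPKM + 1), a scale that understates changes of low genes, it was 0.28 (adjusted p = 0.215). Conduit replicate 3 also had the most transcript of adipocyte markers, 818 CPM against 165 CPM in conduit replicate 1, 203 CPM in conduit replicate 2 and 36.0 to 241 CPM in the untreated group, and the part of these cells in the Olig1 value was not tested. Of the oligodendrocyte markers, Olig2 was at 0.0275 CPM or below in conduit libraries and 0.0460 CPM or below in untreated libraries. Mog was at 0.236 to 0.577 CPM in conduit libraries and at 0 in the untreated ones. Of the 7 markers, Olig2, Nkx2-2 and Mog did not pass the filter, and all 4 that were tested were called higher, beside 24.0% of all tested genes. Of these 4, Mobp (means of 1.55 CPM in conduit and 0.123 CPM in untreated nerves) and Opalin (0.649 and 0.0288 CPM) were near the floor. The sum of the 7 was 66.6 to 71.9 CPM in conduit libraries against 42.8 to 47.4 CPM in untreated libraries, most of it from Sox17, which other cells also express. The part of oligodendrocyte transcripts in the Olig1 value was not tested.

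**Figure D2:**
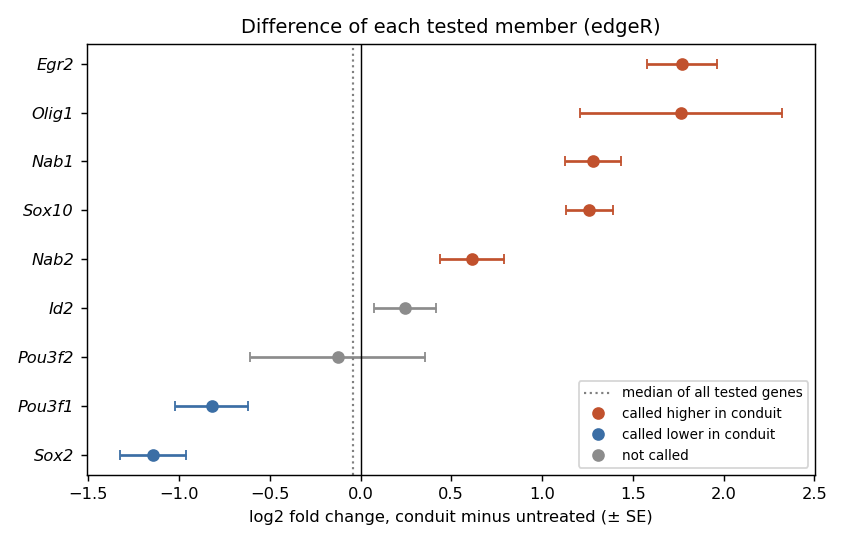
Log2 fold change (x axis, conduit minus untreated, bars ± SE) of the 9 tested members from edgeR, in order of size. Egr2, Olig1, Nab1, Sox10 and Nab2 were called higher and Pou3f1 and Sox2 lower; the SE of Olig1 (0.56) and Pou3f2 (0.48) are the widest.

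Levels of different genes were compared on the deposited FPKM, which divides by gene length and library total, within each group. Sox10 was the most abundant member in both groups, at 105 ± 8.85 FPKM in conduit nerves and 57.5 ± 2.16 FPKM in untreated nerves (SD, n = 3 each). In conduit nerves it was followed by Egr2 (40.9 ± 5.22 FPKM), Id2 (34.1 ± 6.66 FPKM) and Nab1 (21.0 ± 2.58 FPKM). Nab2 (9.99 FPKM), Sox2 (8.67 FPKM) and Pou3f1 (7.24 FPKM) came next. Egr2 and Id2 overlapped in their libraries, as did Nab2 with Sox2 and Sox2 with Pou3f1.

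In untreated nerves the order after Sox10 was Id2 (37.6 ± 4.24 FPKM), Sox2 (25.2 ± 5.92 FPKM), Pou3f1 (16.7 ± 2.51 FPKM), Egr2 (15.6 ± 2.94 FPKM), Nab1 (11.3 ± 1.90 FPKM) and Nab2 (8.55 ± 1.62 FPKM). Each of the last 4 overlapped in its libraries with its neighbour in the order, and Sox10, Id2 and Sox2 did not. Sox2 was clear of Pou3f1 only narrowly, with a lowest library at 19.26 FPKM against a highest of 19.21 FPKM. In conduit nerves Egr2 thus held rank 2 and Sox2 rank 6, while in untreated nerves Egr2 held rank 5 and Sox2 rank 3. Pou3f2 (1.21 FPKM in conduit and 1.75 FPKM in untreated nerves), Olig1 (0.422 FPKM in conduit and 0.159 FPKM in untreated nerves) and Pax3 (0.0118 FPKM in conduit and 0.0123 FPKM in untreated nerves) closed both orders with no overlap between neighbours.

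**Figure D3:**
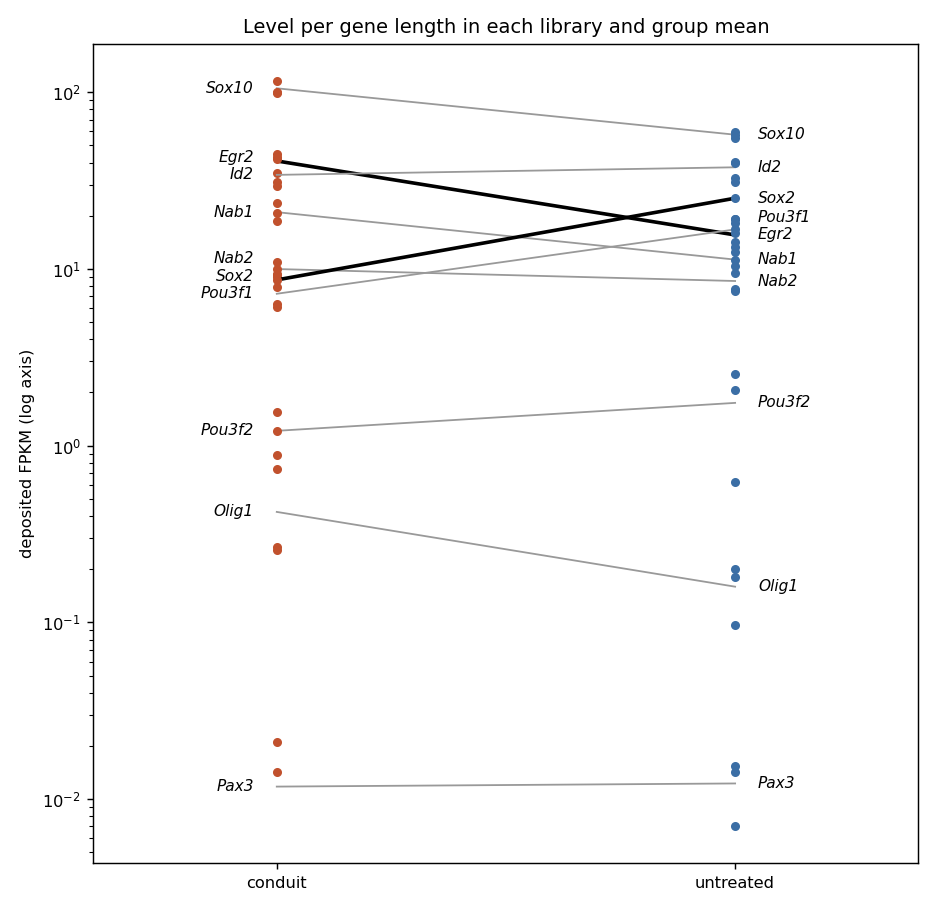
Deposited FPKM of the 10 genes (log y axis) in conduit libraries on the left and untreated libraries on the right; dots are libraries with a value above 0, lines join the group means, and Egr2 and Sox2 are drawn in black. The lines of Egr2 and Sox2 cross: Egr2 averaged 40.9 FPKM and Sox2 8.67 FPKM in conduit nerves, and 15.6 and 25.2 FPKM in untreated nerves.

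Ratios between members of the same library do not depend on how libraries are scaled, and 6 were compared. Egr2 had 6.19, 7.30 and 8.43 counts per count of Sox2 in conduit replicates and 0.983, 0.619 and 1.47 in untreated replicates. The groups were far apart, with a difference of the mean log2 ratio of 2.91, or 7.53-fold (exact permutation test, two-sided, p = 0.1, adjusted p = 0.12 over 6 ratios). A p of 0.1 is the smallest that 3 against 3 libraries allow. Of the 6 ratios, 5 gave this smallest p with no overlap of libraries. They are not separate evidence from the single-gene calls. Most pair members that were each called, and several share Sox10, itself called higher. The share of other gene pairs without overlap was not computed.

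Set against Sox10, which is made throughout the lineage, Sox2 was 5.21-fold lower in conduit nerves. It had 0.0663, 0.0820 and 0.0700 counts per Sox10 count in conduit replicates and 0.398, 0.458 and 0.295 in untreated replicates. Pou3f1 over Sox10 was 0.0876, 0.0679 and 0.0668 in conduit and 0.330, 0.350 and 0.269 in untreated replicates, a log2 difference of -2.10. Id2, which was not called by itself, was 0.0966, 0.0778 and 0.0838 counts per Sox10 count in conduit replicates and 0.158, 0.178 and 0.188 in untreated replicates. That is a log2 difference of -1.02 with no overlap between groups, in a ratio whose denominator was called higher.

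Egr2 over Sox10 was the ratio whose groups overlapped. It was 0.410, 0.599 and 0.590 in conduit replicates and 0.391, 0.283 and 0.433 in untreated replicates, with conduit replicate 1 inside the untreated range (log2 difference 0.53, exact permutation test, p = 0.2, adjusted p = 0.2). Nab2 over Egr2 was 0.268, 0.232 and 0.195 in conduit replicates and 0.453, 0.565 and 0.533 in untreated replicates, a log2 difference of -1.16. Nab2 was thus higher in CPM but lower per Egr2 count in conduit nerves.

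**Figure D4:**
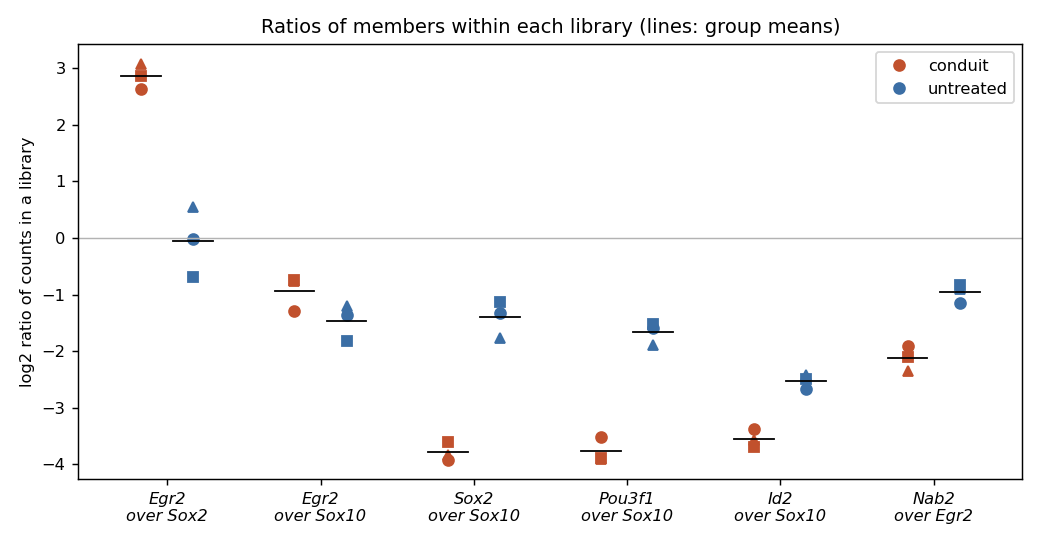
Log2 ratio of counts of 2 members within each library (y axis) for 6 ratios, conduit on the left and untreated on the right of each pair, symbols for replicates 1 to 3 and lines for group means. The groups are apart in every ratio except Egr2 over Sox10, where conduit replicate 1 lies within the untreated range.

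The genes around these factors were read from 6 lists, each count to be set beside the 24.0% of all tested genes that were called higher and the 26.2% called lower. The lists, like the members, were chosen with earlier results of these data known. All 15 myelin genes known as targets of Egr2 or Sox10 were higher in conduit nerves, with a median log2 fold change of 3.32 against -0.04 for all tested genes. Examples were Drp2, of the periaxin complex (2.70 ± 0.16 SE, edgeR adjusted p = 7.82e-05), and Mbp, myelin basic protein (3.17 ± 0.24). The lowest of the 15, the gap junction gene Gjb1, was at 1.22 ± 0.20. Of 7 genes for signals and receptors of the nerve, not all of them upstream of Pou3f1 and Egr2, 6 rose and 1 fell (median 1.14). Only 4 rose with library totals. The adhesion receptor Adgrg6, which raises cyclic AMP in Schwann cells, rose by a log2 fold change of 1.71 ± 0.13, and the Schwann cell ligand Dhh, desert hedgehog, by 1.67 ± 0.20. Nrg1, neuregulin, was the 1 that fell, with 1.70 ± 0.315 CPM in conduit and 36.6 ± 10.8 CPM in untreated nerves (-4.43 ± 0.27, or -1.42 by limma on log2(FPKM + 1), still called). The 4 neuron markers summed to only 0.706 to 3.32 CPM in conduit and 0.345 to 1.04 CPM in untreated libraries. Nrg1 RNA made in cell bodies outside the nerve is not measured here, and counts per gene do not separate its isoforms. Which cells of the nerve made the Nrg1 RNA was not tested.

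Of 15 other factors that act for myelination, 5 rose, 2 fell and 8 were not called (median 0.24). The share called was near the 50.2% of all tested genes. Srebf1 (1.73 ± 0.24 SE) and Srebf2 (1.25 ± 0.16, or 0.82 by limma on log2(FPKM + 1)), which drive fatty acid and cholesterol synthesis, rose. The chromatin genes Hdac1 (-0.72 ± 0.11) and Smarca4 (-0.76 ± 0.12) fell. With library totals they were at -1.11 and -1.15, and 5 genes of the list rather than 2 were lower. Of 10 other neural crest and early glial factors, 0 rose and 3 fell, with Sox8, Sox9 and Foxd3 among the 6 not called and Tfap2b not tested. Of the 9 tested, 3 lower is close to the 26.2% of all tested genes. Those that fell were Tfap2a (-3.60 ± 0.62, edgeR adjusted p = 0.00257), Snai2 (-1.42 ± 0.29) and Ets1 (-1.32 ± 0.30). Tfap2a was low in both groups, with means of 0.153 CPM in conduit and 1.90 CPM in untreated nerves. Snai2 averaged 2.62 CPM in conduit and 7.04 CPM in untreated nerves, and Ets1 49.6 and 124 CPM. Tfap2a was at -0.64 by limma on unfiltered log2(FPKM + 1), still called (adjusted p = 0.0321). These 3 factors are also expressed in cells other than the Schwann lineage, such as T and endothelial cells (Ets1), melanocytes (Tfap2a) and fibroblasts (Snai2). All 4 T cell markers were lower, with sums of 1.47 to 2.25 CPM in conduit and 39.4 to 121 CPM in untreated libraries. Cd8a made up most of the untreated sums, at 32.9 to 113 CPM. Cd3e averaged 0.631 CPM in conduit and 2.71 CPM in untreated nerves. Of the 5 melanocyte markers, Tyrp1 (-4.15 ± 0.67) and Dct (-2.81 ± 0.36) were lower and Pmel was higher (0.84 ± 0.27), Mlana was not tested and Tyr was at 0 in all 6 libraries. The sum of the 5 was 4.24 to 7.09 CPM in conduit and 27.2 to 49.0 CPM in untreated libraries. Tyrp1 made up most of the untreated sums, at 22.1 to 44.5 CPM. Of 4 endothelial markers 1 was lower, and of 5 fibroblast markers 1 was lower and 1 higher. The part of these cells in the values of the 3 factors was not tested.

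Of 11 other factors that oppose myelination or mark injured Schwann cells, 4 fell, 2 rose and 5 were not called (median -0.45). Here too the share called was near that of all tested genes, 50.2%. Runx2, a runt factor found in injured Schwann cells, had 2.09 ± 0.485 CPM in conduit and 49.7 ± 13.2 CPM in untreated nerves (-4.57 ± 0.28 SE, edgeR adjusted p = 7.82e-05, and -2.11 by limma on log2(FPKM + 1), still called). Jun, the activator of the injury programme, had 86.7 ± 22.5 CPM in conduit and 271 ± 24.6 CPM in untreated nerves (-1.64 ± 0.20). The 2 that rose were the Notch target Hes1 (1.01 ± 0.17) and the Id2 relative Id4 (0.75 ± 0.13). Both were nearer to 0 with library totals (0.63 for Hes1 and 0.37 for Id4), where they were still called. Hes1 was not called by limma on unfiltered FPKM (adjusted p = 0.0524), nor Id4 by limma with a pseudocount of 0.1 (0.0514). Of 6 surface and cytoskeletal genes of immature or non-myelinating cells, Ncam1 (2.39 ± 0.27), Cdh2 (2.28 ± 0.17, or 1.44 by limma on log2(FPKM + 1)) and L1cam rose. Ngfr, the low-affinity neurotrophin receptor (-3.62 ± 0.30), and Gap43, a growth cone protein (-1.49 ± 0.30), fell, and Gfap was not called.

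**Figure D5:**
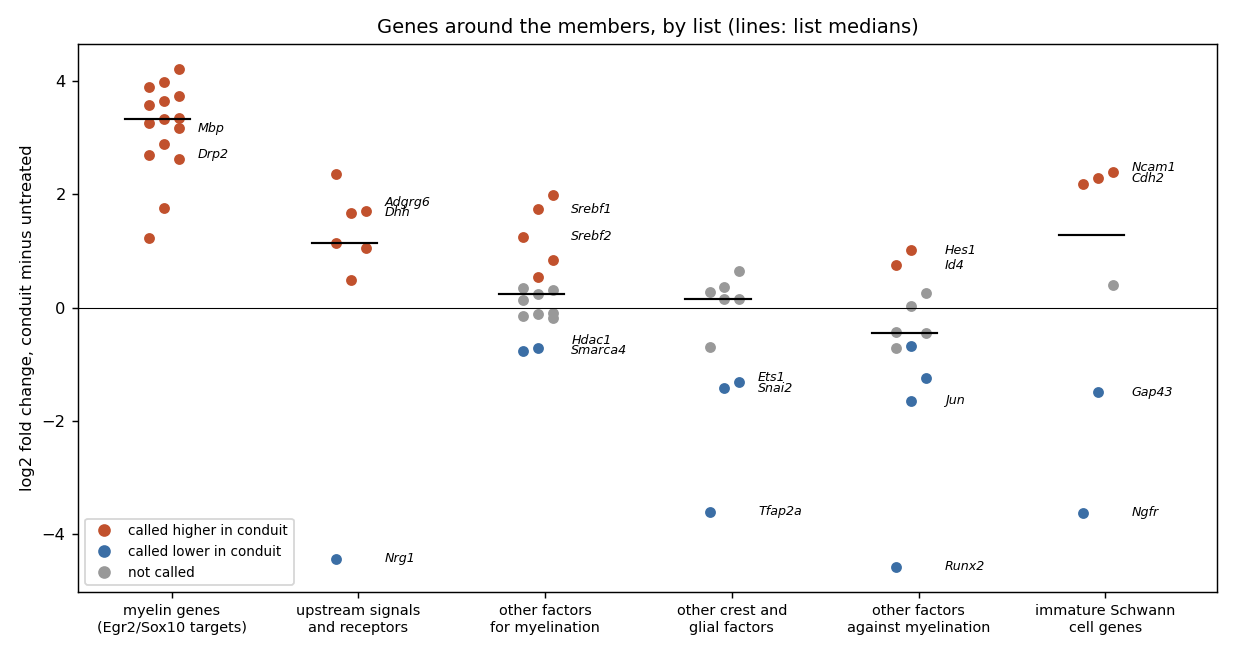
Log2 fold change (y axis, conduit minus untreated, edgeR) of each tested gene in 6 lists around the members, with list medians as lines and the genes described in the text labelled. All 15 myelin genes lie above 1, whereas the lists of other factors for and against myelination hold genes on both sides of 0.

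Markers of other cells moved with the same comparison. All 6 macrophage markers were lower, with sums of 129 to 292 CPM in conduit libraries and 1006 to 1379 CPM in untreated libraries. All 5 proliferation genes were lower too, with sums of 58.1 to 68.6 CPM in conduit and 253 to 343 CPM in untreated libraries. The 3 perineurial markers were higher, at 1998 to 2386 CPM in conduit against 331 to 525 CPM in untreated libraries. Itgb4, which is not particular to perineurial cells, was the largest part of this sum in every library, at 1466 to 1807 CPM in conduit and 165 to 315 CPM in untreated libraries. The part of Schwann cells in the Itgb4 value was not tested. Slc2a1 averaged 318 CPM in conduit and 135 CPM in untreated nerves, and Cldn1 251 and 41.3 CPM. The part of cell numbers in the values of the 10 genes was not tested. Without untreated replicate 1, the library with the muscle transcripts, 3 members were called higher (Sox10, Egr2 and Nab1) and 2 lower (Sox2 and Pou3f1), while the log2 fold changes of Nab2 and Olig1 were 0.56 and 1.88, near the 0.61 and 1.77 of all libraries. The same 5 were called without untreated replicate 2. Without conduit replicate 2, only Sox2 was lower.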

How the data were processed

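RNA of 6 sciatic nerve libraries was sequenced. TRIzol extraction, mRNA enrichment and the VAHTS Universal V10 kit are given per the labels' protocols, with no statement on strand. The submitters' processing notes name the build mRatBN7.2 and the tools HISAT2, HTSeq, fastp and DESeq2, without versions. The authors deposited raw counts per gene and FPKM per library. In all 20504 genes that could be compared, the deposited FPKM equalled the count over 1 length and the library total (tolerance 1e-04). The groups follow the sample titles, and 0 columns were left unused.

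Tests used edgeR 4.0.16 in R 4.3.3 (quasi-likelihood F test, two-sided) on counts of 15464 genes kept by filterByExpr (minimum count 10), TMM scaling and group alone, adjusted by Benjamini-Hochberg over all of them. SE is the log2 fold change over the square root of F. Ratios added 0.5 to each count. The fits were tested on simulated counts. The 10 members and the lists were chosen with earlier results of these data known. All members are named, and of each list up to 3 genes by adjusted p plus up to 3 called against its main direction. A gene named by the rule, and some markers, are not reported here. Gjb1, L1cam, Gfap, Sox8, Sox9, Foxd3 and Tfap2b were named after their values were seen. Alternatives were RLE scaling, DESeq2 1.42.0, library totals with or without the 10 most abundant genes (the latter, and all alternatives for listed genes, added after the data were seen), no filter or 5 CPM in 3 libraries, a replicate block, limma 3.58.1 on log2(FPKM + 1) or log2(FPKM + 0.1) with FPKM of at least 0.5 in 3 libraries or no filter, and each library left out.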

Additional observations from a re-analysis of the deposited data

How the results depend on the processing

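Sox10, Egr2, Nab1 and Sox2 kept direction and call under all 16 alternatives, while Nab2 and Olig1 were the least stable. The number of members higher was 5, but 3 with library totals and 3 in each of the limma fits on FPKM, with Nab2 and Olig1 not called there. Library totals moved all tested genes by a median of -0.39 on the log2 scale, and the filtered FPKM fits do not test Olig1. With single libraries left out it ran from 3 to 4, with 3 without untreated replicate 1 or 2. The number lower was 2, and 1 to 2 with single libraries left out, the 1 without conduit replicate 2. Id2 changed sign to -0.14 with library totals and to -0.15 in the limma fits (-0.15 with a pseudocount of 0.1). Pou3f2 ran from -0.52 to 0.21 with libraries left out, and neither was called in any setting. The share of calls that were higher was 47.8%, but 25.9% with library totals, 38.7% with totals without the 10 most abundant genes, and 25.2% to 26.2% with limma. Among the lists, other factors for myelination had 5 lower with library totals, 5 or 6 lower by limma and 3 higher by limma without a filter, against 2 lower and 5 higher. Factors against myelination had 7 lower and 1 higher by limma with a pseudocount of 0.1, and 1 higher by limma without a filter, against 4 lower and 2 higher. Crest factors had 1 lower with the filter of 5 CPM, against 3, and 1 higher without conduit replicate 1, against 0. The genes for signals and receptors had 4 higher, against 6, with library totals and in each limma fit. They also had 4 with totals without the 10 most abundant genes, and without untreated replicate 1, conduit replicate 1 or conduit replicate 2. The 6 ratios kept their direction in every setting, although the replicate block cannot change their mean difference.

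Replicate numbers are shared between the groups, but same-numbered libraries deviated together with r = 0.18, -0.0466 and 0.106 for numbers 1, 2 and 3, so the numbers were not taken as pairs. With the replicate block, Pou3f2 was at 0.042, Olig1 was no longer called (1.62, adjusted p = 0.0882), and 7515 genes were called in all, against 7761. The numbers of members called with the block were 4 higher and 2 lower. The log2 difference of Egr2 over Sox2 stayed at 2.91, which the block cannot move because each number occurs in both groups. Depth limits Pax3 and Olig1 only, since the other members had at least 900 counts in each group.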
